A study of Drosophila melanogaster with 9 samples.

Results

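*cid*, *cal1* and *Cenp-C* were chosen by symbol as the genes of centromere identity, and all 3 were found among the 17493 genes of the deposited count table and among the 9231 genes tested. Their mRNA was followed in S2-DGRC cells, a cultured *Drosophila* line of embryonic origin with haemocyte-like character, by poly-A RNA-Seq. The cells were treated for 96 h with CycA dsRNA or Myb dsRNA, each labelled as inducing endoreplication, or with GFP dsRNA, the control without a fly target, labelled as mitotic. There were 3 biological replicates of each, 1 library apiece, and every group came from the same line, medium and temperature. The labels give the same serum level for all libraries, whereas the methods give separate levels for S2 cells and for endoreplicating cells. In the comparisons with GFP dsRNA cells a difference in serum can therefore not be told apart from the knockdowns.

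Centromeres are marked by chromatin in which histone H3 is replaced by a centromeric variant, known as CID or CENP-A in the fly and encoded by *cid*. *cal1* encodes the assembly factor that brings CID to centromeres, and *Cenp-C* encodes the protein that binds CID chromatin and connects it to the microtubule-binding outer kinetochore in mitosis. CID is loaded once per cycle around mitosis in dividing fly cells, whereas endoreplicating cells copy their DNA without dividing.

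The opening bases of both knockdown dsRNAs are shown because the comparisons rest on these reagents. Each is written as the study's reagent list gives it, 5′ to 3′, and covers bases 1 to 120 of a dsRNA of 391 bases for *CycA* (gene on 3L, 11826719 to 11833578, minus strand) and 392 bases for *Myb* (gene on X, 15854832 to 15857823, minus strand). The full dsRNAs shared 0 words of 19 bases.
CycA dsRNA: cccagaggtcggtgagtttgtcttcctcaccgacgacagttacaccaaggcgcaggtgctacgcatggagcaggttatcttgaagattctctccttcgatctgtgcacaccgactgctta
Myb dsRNA: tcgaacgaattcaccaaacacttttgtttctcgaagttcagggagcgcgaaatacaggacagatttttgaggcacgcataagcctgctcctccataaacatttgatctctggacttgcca

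Libraries held 29128930 to 44280452 counts. Levels are CPM, read counts relative to the library total after scaling with TMM factors. *CycA*, a partner of the mitotic kinase Cdk1, was at 24.1, 43.2 and 24.7 CPM in CycA dsRNA cells, against 186, 181 and 185 CPM in GFP dsRNA cells. *Myb*, a DNA-binding subunit of the Myb-MuvB complex, was at 13.3, 15.1 and 12.8 CPM in Myb dsRNA cells, against 224, 203 and 219 CPM in GFP dsRNA cells. Each target was thus lower in every library of its own knockdown, and CycA dsRNA replicate 2 kept the most *CycA* mRNA of its group. Of the haemocyte markers, *srp* was at 193 to 197 CPM in CycA dsRNA cells, 195 to 206 CPM in Myb dsRNA cells and 192 to 219 CPM in GFP dsRNA cells, while *Hml* was at most 0.881 CPM and *NimC1* at most 1.20 CPM in any library. The 8 haemocyte markers summed to 1789 to 1874 CPM in CycA dsRNA cells, 1638 to 1761 CPM in Myb dsRNA cells and 1659 to 1867 CPM in GFP dsRNA cells. The 8 markers of neurons, muscle, germ line and fat body summed to 48.0 to 55.7 CPM, 44.8 to 47.4 CPM and 31.7 to 37.9 CPM in the same order. Most of each sum was the neuronal marker *elav*, which averaged 42.9, 36.2 and 31.8 CPM and was called in neither knockdown. No other of these markers exceeded 6.332 CPM in any library. *nSyb*, *Mhc*, *Act88F*, *Fbp1* and *Lsp1beta* were each at most 1.334 CPM. Single haemocyte markers differed more than their sum. *eater*, a phagocytic receptor, was at 51.8, 45.5 and 50.7 CPM in CycA dsRNA cells, against 2.97, 3.06 and 3.26 CPM in GFP dsRNA cells. *crq*, another such receptor, was at 488, 495 and 490 CPM in CycA dsRNA cells, against 222, 214 and 220 CPM in GFP dsRNA cells, and *Pvr* was lower in CycA dsRNA cells, with a log2 fold change of -0.60. Of the 8 haemocyte markers 4 were higher and 1 was lower in CycA dsRNA cells, and 1, *ush*, was higher in Myb dsRNA cells, a call lost with the length trend removed and without GFP dsRNA replicate 2, Myb dsRNA replicate 1 or Myb dsRNA replicate 2. Of the 6 other markers tested 5 were higher in CycA dsRNA cells and 4 in Myb dsRNA cells, while 21.2% of all tested genes were higher in CycA dsRNA cells and 15% in Myb dsRNA cells. With at least 1 CPM in 3 libraries required, 3 of these other markers were higher in CycA dsRNA cells. *nSyb* and *Lsp1beta*, called higher in CycA dsRNA cells at the settings of the report, were under 1 CPM in every library. They were not tested under this filter, so their absence from the 3 is not a lost call. No marker sum was at 0, and the part of these markers in the results on the centromere genes was not tested.

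*cid* (FBgn0040477) lies on 2R at 13485617 to 13486631 of Release 6, on the plus strand, as a single exon of 1015 bases. *cal1* (FBgn0038478) lies on 3R at 17088280 to 17091938 on the plus strand, with 2 exon blocks of 3602 bases in all. *Cenp-C* (FBgn0266916) lies on 3R at 8564105 to 8569248 on the plus strand, with 2 transcripts and 8 exon blocks of 4682 bases in all.

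All 3 genes were at lower levels in CycA dsRNA cells than in GFP dsRNA cells, with the largest fall in *Cenp-C*. The falls of 2 of the 3, *Cenp-C* and *cid*, reached the threshold of 0.5 on the log2 scale, and that of *cal1* did not. Read counts of *Cenp-C*, the CID-binding link to the kinetochore, were 1123, 1648 and 1517 in CycA dsRNA cells, against 4166, 2806 and 3183 in GFP dsRNA cells. These are 40.0, 40.7 and 40.5 CPM in CycA dsRNA cells, against 93.7, 81.0 and 91.0 CPM in GFP dsRNA cells. The CycA dsRNA libraries were nearly level with each other and all lay below the lowest control library, as they did for 36.6% of all tested genes. *Cenp-C* fell by 1.13 on the log2 scale (SE 0.0531, adjusted p = 6.5e-11 by edgeR's quasi-likelihood test), to 45.6% of the control level, and 1.9% of all tested genes had a lower fold change.

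*cid*, the histone variant itself, was at 8.61, 7.26 and 6.70 CPM in CycA dsRNA cells, against 11.58, 11.97 and 10.98 CPM in GFP dsRNA cells, from 242 to 294 counts and 384 to 515 counts. The groups did not overlap, which was so in this direction for 36.6% of all tested genes. *cid* fell by 0.63 on the log2 scale (SE 0.0879, adjusted p = 1.2e-05, edgeR). When a trend of each library with exon length was removed, its log2 fold change was -0.46 (adjusted p = 5e-05, edgeR), which is under the fold threshold of 0.5.

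*cal1*, the CID assembly factor, was at 29.2, 31.2 and 29.0 CPM in CycA dsRNA cells, against 39.0, 35.1 and 39.0 CPM in GFP dsRNA cells. The groups did not overlap, as was so in this direction for 36.6% of all tested genes. The log2 fold change of -0.34 (SE 0.0526, adjusted p = 3.5e-05, edgeR) was smaller than the threshold of 0.5, so *cal1* was not called. Calls used the study's thresholds, an adjusted p under 0.05 together with a log2 fold change that reached 0.5 in either direction. By this rule 2 of 3 members were lower and 0 were higher in CycA dsRNA cells, while 14.1% of all 9231 tested genes were lower and 21.2% were higher. The median log2 fold change was -0.63 over the members and -0.00037 over all tested genes. These are bulk RNA samples, in which fewer cells of a kind and less RNA per cell cannot be told apart.

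**Figure D1:**
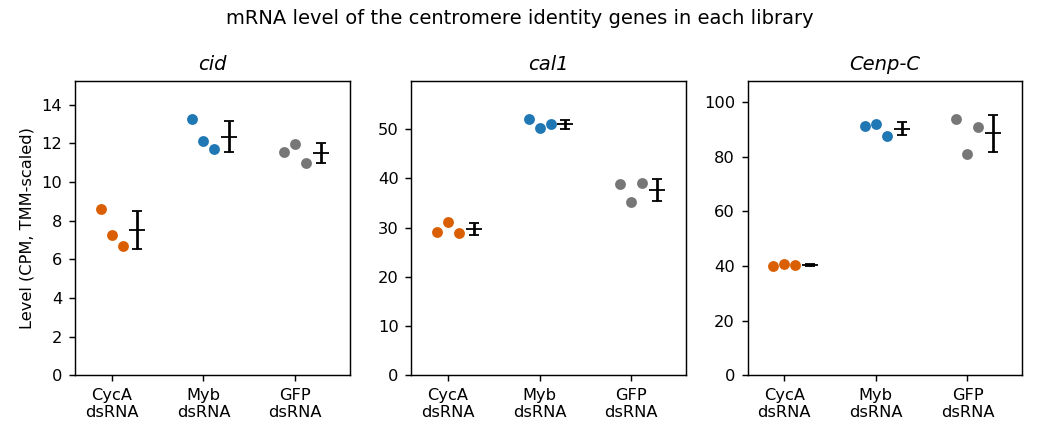
Level of each gene in CPM (vertical axis, starting at 0) in each library of the 3 treatments, CycA dsRNA at the left and GFP dsRNA at the right, with the mean and SD of 3 libraries in black. *Cenp-C* stood at 40.0 to 40.7 CPM in CycA dsRNA cells, below every other library, and *cal1* was at 50.2 to 52.0 CPM in Myb dsRNA cells, above every other library.

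In Myb dsRNA cells no fall of *Cenp-C* or *cid* was detected. *Cenp-C* was at 91.3, 92.2 and 87.5 CPM in Myb dsRNA cells, within the range of the GFP dsRNA libraries. Its log2 fold change was 0.03 (SE 0.0505, 95% interval -0.08 to 0.14, adjusted p = 0.66, edgeR). The sign of this value depended on the libraries and the length correction, and it was -0.04 without GFP dsRNA replicate 2. *cid* was at 13.2, 12.1 and 11.7 CPM in Myb dsRNA cells and overlapped the control libraries, with a log2 fold change of 0.10 (SE 0.081, 95% interval -0.07 to 0.28, adjusted p = 0.29, edgeR). With the length trend removed the value for *cid* was 0.21 (adjusted p = 0.022, edgeR), a rise under the fold threshold.

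*cal1* was at 52.0, 50.2 and 51.0 CPM in Myb dsRNA cells, against 39.0, 35.1 and 39.0 CPM in GFP dsRNA cells, and the groups did not overlap. Every Myb dsRNA library was above every control library for 32.3% of all tested genes. Its log2 fold change was 0.44 (SE 0.0505, adjusted p = 3.8e-06, edgeR), which is under the fold threshold. With no scaling factors the value was 0.51 (adjusted p = 6.1e-07, edgeR) and *cal1* was called higher. At the settings of the report 0 of 3 members were called in either direction in Myb dsRNA cells, while 15% of all tested genes were higher and 6.79% were lower.

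The direct comparison of the knockdowns tests whether they differ, and it shares its libraries with both comparisons above. All 3 genes were lower in CycA dsRNA cells than in Myb dsRNA cells, and none of the groups overlapped. The groups were separated in this direction for 38.3% of all tested genes. *Cenp-C* averaged 40.4 ± 0.368 CPM in CycA dsRNA cells and 90.3 ± 2.51 CPM in Myb dsRNA cells (SD, n = 3 libraries each), a log2 fold change of -1.16 (SE 0.053, adjusted p = 5e-11, edgeR). *cal1* averaged 29.8 ± 1.23 CPM in CycA dsRNA cells and 51.0 ± 0.913 CPM in Myb dsRNA cells, a log2 fold change of -0.77 (SE 0.0517, adjusted p = 3.8e-09, edgeR). *cid* averaged 7.52 ± 0.984 CPM in CycA dsRNA cells and 12.4 ± 0.789 CPM in Myb dsRNA cells, a log2 fold change of -0.73 (SE 0.087, adjusted p = 2.5e-06, edgeR). Of all tested genes 14.5% were lower and 15.4% were higher in this comparison.

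**Figure D2:**
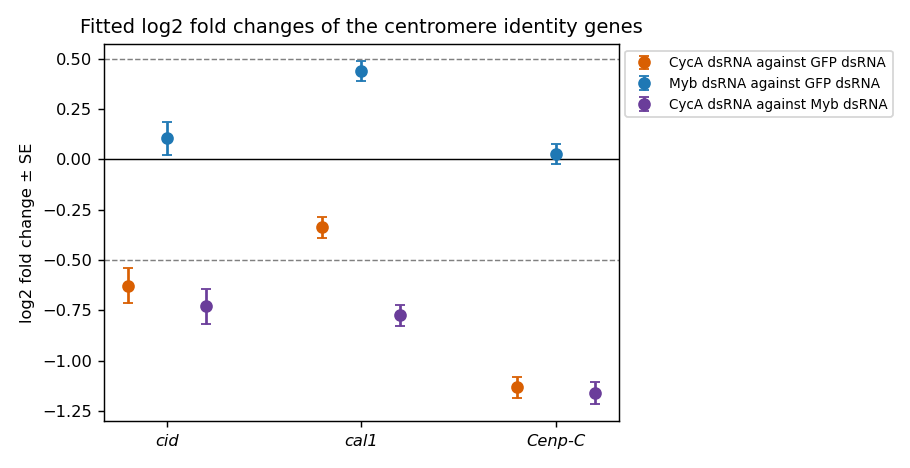
Fitted log2 fold change (vertical axis) with its SE for each gene in the 3 comparisons, with dashed lines at the fold threshold of 0.5 in either direction. *Cenp-C* was at -1.13 for CycA dsRNA against GFP dsRNA and at 0.03 for Myb dsRNA against GFP dsRNA, and *cal1* had values of opposite sign, -0.34 and 0.44.

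Levels were compared between the genes after division by exon length in kb. In CycA dsRNA cells *Cenp-C* was at 8.62 ± 0.0786 CPM per kb, *cal1* at 8.28 ± 0.342 CPM per kb and *cid* at 7.41 ± 0.97 CPM per kb, and each neighbour in this order overlapped the next. In Myb dsRNA cells *Cenp-C* was at 19.3 ± 0.536 CPM per kb, *cal1* at 14.2 ± 0.253 CPM per kb and *cid* at 12.2 ± 0.777 CPM per kb, with no overlap. In GFP dsRNA cells *Cenp-C* was at 18.9 ± 1.43 CPM per kb, above *cid* at 11.3 ± 0.491 CPM per kb and *cal1* at 10.5 ± 0.614 CPM per kb, whose ranges met at 10.8 CPM per kb. The median tested gene was at 13.9, 14.2 and 14.4 CPM per kb in cells given CycA dsRNA, Myb dsRNA or GFP dsRNA. *Cenp-C* was therefore above that median in Myb dsRNA and GFP dsRNA cells and below it in CycA dsRNA cells.

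The balance of the genes within a library does not depend on the scaling of libraries. The log2 ratio of *Cenp-C* to *cal1* counts was 0.45, 0.38 and 0.48 in CycA dsRNA cells, 0.81, 0.88 and 0.78 in Myb dsRNA cells, and 1.27, 1.20 and 1.22 in GFP dsRNA cells. No groups overlapped, and the mean difference from GFP dsRNA cells was -0.79 for CycA dsRNA and -0.41 for Myb dsRNA. In CycA dsRNA cells the lower ratio went with less *Cenp-C*, and in Myb dsRNA cells with more *cal1*. The two-sided exact permutation p was 0.1 for each, the smallest that 3 libraries against 3 can give, and 0.15 after adjustment over 9 tests.

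The log2 ratio of *cid* to *Cenp-C* counts averaged -2.43 ± 0.196 in CycA dsRNA cells and -2.94 ± 0.16 in GFP dsRNA cells (SD, n = 3 each, exact permutation p = 0.1), a difference of 0.51. In Myb dsRNA cells it averaged -2.87 ± 0.0751, a difference of 0.07 from GFP dsRNA cells (exact permutation p = 0.6, n = 3 each). The log2 ratio of *cid* to *cal1* averaged -1.99 ± 0.2 in CycA dsRNA cells and -1.71 ± 0.141 in GFP dsRNA cells, with overlap (exact permutation p = 0.2, n = 3 each). In Myb dsRNA cells this ratio averaged -2.05 ± 0.0738, below every GFP dsRNA library (exact permutation p = 0.1, n = 3). The GFP dsRNA libraries differed in a trend with exon length, with a rank correlation across genes of 0.44, -0.52 and 0.25 between exon length and deviation from the group mean. In replicate 2 the short gene *cid* was at its highest level of the group and the long genes *cal1* and *Cenp-C* were at their lowest.

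**Figure D3:**
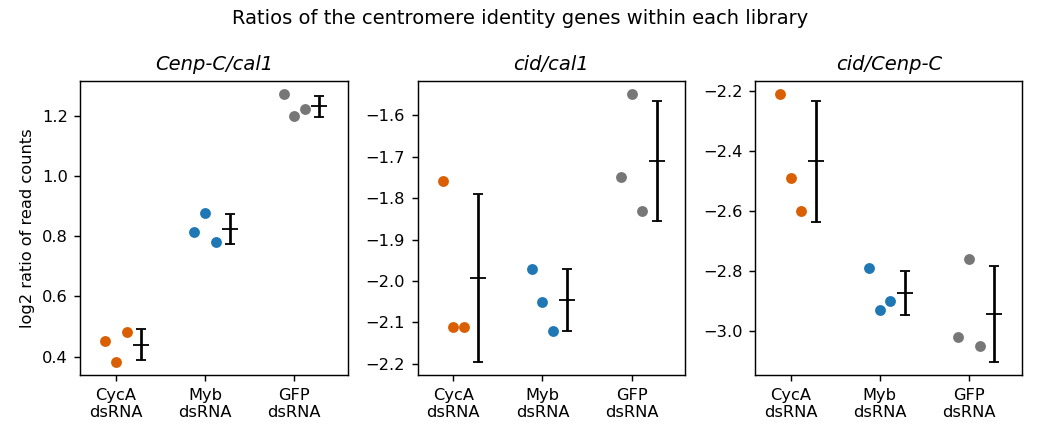
Log2 ratio of read counts (vertical axis, a different range in each panel) for each pair of genes in each library of the 3 groups, with the mean and SD of 3 libraries in black. The ratio of *Cenp-C* to *cal1* separated all groups, from 0.38 to 0.48 in CycA dsRNA cells, 0.78 to 0.88 in Myb dsRNA cells and 1.20 to 1.27 in GFP dsRNA cells.

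Of 13 genes whose products act on CID or share its chromatin, 1 was higher and 4 were lower in CycA dsRNA cells, with a median log2 fold change of -0.24, and 1 was higher and 0 were lower in Myb dsRNA cells, with a median of 0.15. Over all tested genes the shares in CycA dsRNA cells were 21.2% higher and 14.1% lower, and those in Myb dsRNA cells were 15% higher and 6.79% lower. *Ppa*, an F-box protein that promotes CID degradation, was at 9.15, 9.60 and 9.66 CPM in CycA dsRNA cells, against 20.8, 18.8 and 19.1 CPM in GFP dsRNA cells (log2 fold change -1.045, SE 0.0652, adjusted p = 1.6e-09, edgeR). The others lower in CycA dsRNA cells were the centromere clustering factors *Nlp* and *mod* and the hybrid incompatibility gene *Hmr*. *rdx*, the adaptor through which the CUL3 ligase modifies CID, rose in CycA dsRNA cells (log2 fold change 0.66, SE 0.0544, adjusted p = 3.8e-08, edgeR), a call that was lost with the length trend removed. *asf1*, a chaperone of histones H3 and H4, rose in Myb dsRNA cells (log2 fold change 0.53, SE 0.0455, adjusted p = 1.7e-07, edgeR), a call that was lost without GFP dsRNA replicate 3 or without Myb dsRNA replicate 1.

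Of 4 cell cycle regulators of CID loading, *CycA* and the APC activator *fzy* were lower in CycA dsRNA cells and 0 were called in Myb dsRNA cells. Since *CycA* was itself knocked down there, its fall cannot count as a response, and *fzy* was the only other regulator called. Among all tested genes 14.1% were lower in CycA dsRNA cells, while 6.79% were lower and 15% were higher in Myb dsRNA cells. *fzy* was at 38.8, 35.5 and 33.8 CPM in CycA dsRNA cells, against 109, 106 and 106 CPM in GFP dsRNA cells. *CycA* in Myb dsRNA cells had a log2 fold change just under the threshold (0.4986, SE 0.172, adjusted p = 0.035, edgeR).

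The outer kinetochore, which Cenp-C anchors, held lower genes in both knockdowns. All 8 genes of its KMN network were lower in CycA dsRNA cells, with a median log2 fold change of -1.45, and 4 of 8 in Myb dsRNA cells, with a median of -0.54. Over all tested genes 14.1% were lower in CycA dsRNA cells and 6.79% in Myb dsRNA cells. *Nnf1a*, a subunit of the Mis12 complex that contacts Cenp-C, was at 5.409, 5.529 and 6.004 CPM in CycA dsRNA cells and 4.02, 3.98 and 3.99 CPM in Myb dsRNA cells, against 18.96, 21.41 and 20.51 CPM in GFP dsRNA cells. *Nnf1a* was thus low in both knockdowns, while *Cenp-C* was low in CycA dsRNA cells. *Spc105R*, the scaffold of the checkpoint, had a log2 fold change of -1.81 in CycA dsRNA cells and -0.35 in Myb dsRNA cells, the second of which was not called. In CycA dsRNA against Myb dsRNA cells 1 gene of the network was higher, *Nnf1a* (log2 fold change 0.50), and 4 were lower. The shares over all tested genes were 15.4% higher and 14.5% lower in this comparison. The call of *Nnf1a* in this comparison was lost with no scaling factors and without CycA dsRNA replicate 3 or any 1 of the Myb dsRNA libraries. *Mis12* had the smallest change of the network in CycA dsRNA cells, -0.54 (adjusted p = 2.5e-06, edgeR).

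The 4 genes of the chromosomal passenger complex were all lower in CycA dsRNA cells (median log2 fold change -1.50), and 2 of 4 were lower in Myb dsRNA cells (median -0.66). The shares of all tested genes that were lower were 14.1% and 6.79% in the same order. *aurB*, its kinase, was at 15.3, 14.5 and 14.5 CPM in CycA dsRNA cells and 32.0, 31.9 and 32.1 CPM in Myb dsRNA cells, against 63.2, 67.7 and 64.8 CPM in GFP dsRNA cells. Of 6 genes of the kinetochore corona, 5 were lower in CycA dsRNA cells and 3 in Myb dsRNA cells, led in both by *cmet*, a CENP-E motor (log2 fold changes -1.98 and -1.65). Of 6 pericentromeric and satellite proteins, 2 were lower in CycA dsRNA cells, *D1* and *mei-S332*, and 0 were called in Myb dsRNA cells, beside 14.1% of all tested genes lower in CycA dsRNA cells and 6.79% lower and 15% higher in Myb dsRNA cells. Of 4 replication-independent histones, *His2Av* was lower in CycA dsRNA cells, with a log2 fold change of -0.51, and 0 were called in Myb dsRNA cells. With RLE or upper-quartile factors, with DESeq2 and without GFP dsRNA replicate 2, 0 of these histones were lower in CycA dsRNA cells.

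**Figure D4:**
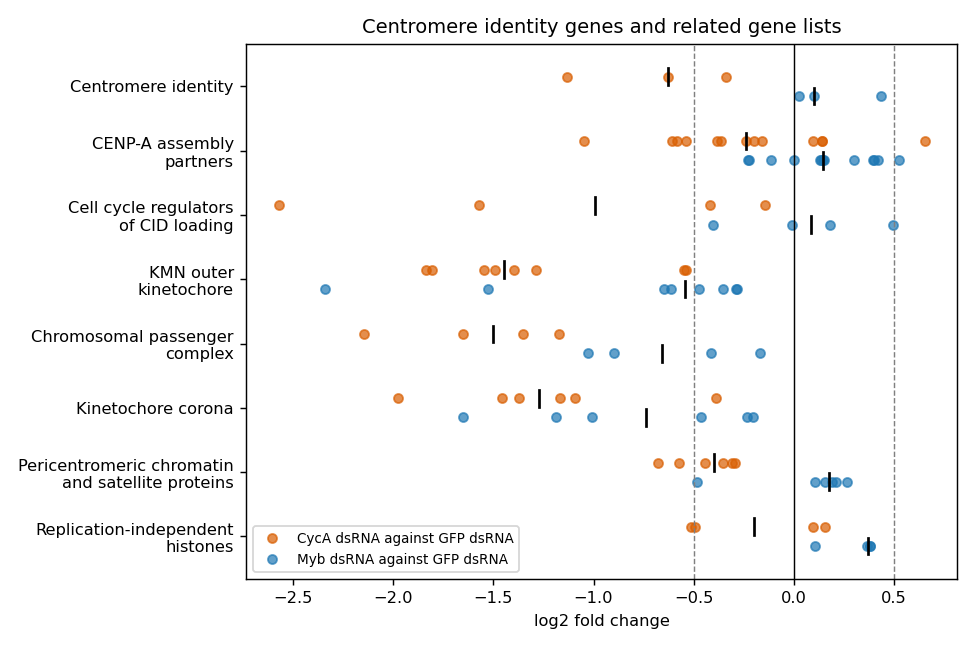
Log2 fold change (horizontal axis) of each gene of 8 lists for CycA dsRNA against GFP dsRNA (orange) and Myb dsRNA against GFP dsRNA (blue), with list medians as black bars and dashed lines at 0.5 in either direction. In Myb dsRNA cells the centromere identity genes had a median of 0.10, and the KMN network had a median of -0.54.

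The genes with the pattern most like each member over the 9 libraries were found among 6185 other genes with a mean of at least 10 CPM, by the root mean square difference of mean-centred log2 CPM. For *Cenp-C* they were *uzip*, *Lam*, the B-type lamin, and *Ppa*, at differences of 0.0573, 0.0643 and 0.0784. For *cal1* they were *spag*, *polybromo*, a chromatin remodeller subunit, and *Fancd2*, a crosslink repair gene, at 0.0431, 0.0433 and 0.046. For *cid* they were *Nup62*, a nuclear pore gene, *Cp110*, a centriole gene, and *Rpp30*, an RNase P subunit, at 0.0721, 0.0761 and 0.0786. Pearson's r between members was 0.831 for *cid* with *cal1*, 0.937 for *cid* with *Cenp-C* and 0.837 for *cal1* with *Cenp-C*, a description of 9 libraries that fall into 3 groups. By the root mean square difference these pairs were at 0.19, 0.259 and 0.326, farther apart than each member was from the genes most like it.

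*cal1* overlaps 406 exon bases of *cher*, which encodes filamin on the opposite strand, and whether reads were counted by strand is not given in the sources used here. *cher* was at 989, 914 and 899 CPM in CycA dsRNA cells and 579, 567 and 533 CPM in Myb dsRNA cells, against 655, 498 and 592 CPM in GFP dsRNA cells. Its log2 fold changes were 0.68 and -0.06, so it rose in CycA dsRNA cells, where *cal1* had a negative value. Next to *Cenp-C*, the antisense RNA *asRNA:CR44291* starts 306 bases away without overlapping it. It was lower in both knockdowns, with log2 fold changes of -1.08 (SE 0.168) and -0.65 (SE 0.154). Its counts were low, at 18, 28 and 27 in CycA dsRNA cells, 44, 28 and 36 in Myb dsRNA cells, and 60, 56 and 50 in GFP dsRNA cells. The neighbours of *cid*, *cbc* at 225 bases and *bbc* at 2 bases, had log2 fold changes of 0.05 and -0.15 in CycA dsRNA cells and were not called. In Myb dsRNA cells *cbc* was at 0.15 and *bbc* at -0.46 (adjusted p = 1.5e-06 for *bbc*, edgeR), both under the fold threshold.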

How the data were processed

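The authors checked single-end reads of TruSeq Stranded mRNA libraries with FastQC 0.11.5, mapped them to Dmel Release 6 with STAR 2.6.1a and counted them on exons with featureCounts, with a strand setting not given in the sources used here. The deposited table holds raw counts of 17493 genes in 9 libraries, with no normalization. The authors' comparison tables from DESeq2 1.14.1 hold fold changes and p-values and were not used. Of the symbols, 5 stored as dates were restored from identifiers.

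Groups and replicate numbers came from the titles, and the third library of each knockdown has the number 4 in its column name. The study's methods give the 3 samples of a group as biological replicates. Replicates differed by more than sampling noise (chi-square per degree of freedom 2.8 to 46.3).

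The analysis used edgeR 4.0.16 in R 4.3.3, whose expression filter, at a minimum count of 10, left 9231 genes. TMM factors scaled the libraries, and all 9 entered one quasi-likelihood model of 3 groups. Adjusted p-values are Benjamini-Hochberg values over all 9231 genes. The SE was taken from the log2 fold change and the F statistic. Intervals of 95% used the fit's degrees of freedom. Ratios were tested by exact permutation. Library totals of 29128930 to 44280452 left a counting error of 6.43% at the lowest *cid* count and 2.98% at the lowest *Cenp-C* count, counting error only.

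Positions came from the BDGP6.54 annotation, which matched 17372 genes, 98.9% of them with the deposited exon length. Transposable elements were dropped from the neighbours after a first look at them. The promoter motif search that had been planned was not run, since no promoter sequence was used here.

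The members, gene lists and tests were chosen with earlier results of these data known. The symbol of *Ppa* was misspelled in the list of CID assembly partners and was corrected after its values had been seen. Without it 12 partners were tested, of which 1 was higher and 3 were lower in CycA dsRNA cells. Named genes were the members, the targets, the extremes of each list, neighbours and the 3 genes most like each member. *Nlp*, *mod*, *Hmr*, *fzy*, *D1*, *srp*, *Hml* and *crq* were named for a small count or as examples after their values were seen. Alternatives changed the scaling, the tool (DESeq2 1.42.0), the filter, the groups in the fit, the replicate block, the length trend, the fold threshold and the libraries included.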

Additional observations from a re-analysis of the deposited data

Results flagged for a closer look

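The effects of the 2 knockdowns differed for every centromere identity gene when they were compared directly, CycA dsRNA against Myb dsRNA, by edgeR's quasi-likelihood test. The log2 fold change was -0.73 for *cid*, -0.775 for *cal1* and -1.16 for *Cenp-C*. For each gene every CycA dsRNA library was lower than every Myb dsRNA library, as it was for 38.3% of all tested genes. The share of all tested genes called lower in this comparison was 14.5%.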

How the results depend on the processing

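Of the 135 values of the members under other settings, 129 kept their direction and their side of the threshold. The exceptions were *cid* in CycA dsRNA against GFP dsRNA cells with the length trend removed (-0.46, no longer called), *cal1* in Myb dsRNA against GFP dsRNA cells with no scaling factors (0.509, called), and *Cenp-C* in Myb dsRNA against GFP dsRNA cells, which was never called and changed sign with the length trend removed (-0.0795, adjusted p = 0.056, edgeR), without GFP dsRNA replicate 2 (-0.0361), without Myb dsRNA replicate 1 (-0.00468) and without Myb dsRNA replicate 2 (-0.0135), in a range of -0.0361 to 0.0681 over libraries left out. The cause was not tested. With at least 1 CPM in 3 libraries required, 868 genes were higher in Myb dsRNA cells, against 1384 at the settings of the report. With no fold threshold the genes higher and lower numbered 3207 and 3317 in CycA dsRNA against GFP dsRNA, 2651 and 2693 in Myb dsRNA against GFP dsRNA, and 2910 and 3224 in CycA dsRNA against Myb dsRNA cells. All 63 alternative values of the ratios stayed within 1 SD of the main value, the SD being pooled over the 2 groups. For libraries left out this could not fail, because leaving 1 of 3 out cannot move a difference that far. Only the values with 10 counts added could have failed. The rule also ignores sign. The *cid* to *cal1* difference in CycA dsRNA against Myb dsRNA cells was 0.0548, and -0.0608 without CycA dsRNA replicate 1. Of the list counts 800 stayed within 1.5 times, 42 were higher and 22 were lower, among them the lost calls of *rdx*, *asf1*, *Nnf1a* and *His2Av* given in the report. The call of *His2Av* was also lost with the length trend removed and with at least 1 CPM required.

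Same-numbered libraries of different groups had correlations of deviations of -0.0465 to 0.0969, with 0 of 9 pairs over 0.1, so the numbers were not taken to pair the samples. Of 18 closest matches 11 had the same number, where 6 would if the number did not matter, and 3 of 9 libraries matched their own number in both other groups, which is a hint from the data. The third library of each knockdown has the number 4 in its column name, so its pairing with the third GFP dsRNA library rests on the titles. With the replicate block *Cenp-C* was at -1.13, 0.0286 and -1.16 in the 3 comparisons in the order of the report, *cid* at -0.62, 0.106 and -0.726, and *cal1* at -0.336, 0.437 and -0.773. The block changed no call of a member, ended that of *Nnf1a* in CycA dsRNA against Myb dsRNA cells, and with it 1937 genes rose and 1306 fell in CycA dsRNA cells. Depth limits *cid* most, with 242 to 579 counts a library.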
